A study of Mus musculus with 10 samples.

Results

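Regulatory T cells given the growth factor IL-2 in the living mouse were compared with regulatory T cells of untreated mice, on 2 of the 10 arrays of the series. Each side was 1 array, so every difference below is between a single array and another, has no replicate check and carries no p-value. Both arrays came from CD4+ cells bearing GFP (GFPfoxp3 below), purified with magnetic beads and then by flow sorting from the combined lymph nodes and spleen of homozygous female Foxp3(gfp/gfp) mice aged 6 to 8 weeks. These mice were backcrossed 8 to 10 generations from 129/Sv to C57BL/6 and make Foxp3 as a knock-in fusion with green fluorescent protein, so that GFP marks cells holding Foxp3. IL-2 was injected 4 times within 24 h into the treated mice, at a dose of 50 ng per g, and cells were isolated 30 min after the last injection. The labels of untreated mice do not say whether they were given the PBS vehicle, so injection and IL-2 cannot be told apart. The sources used here do not give the number of mice behind each RNA.

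A further 4 arrays of the same 6 to 8 week age are set beside these, each IL-2 array with an untreated array of its own. GFPko denotes GFP+ CD4+ cells of Foxp3(gfpko/wt) females, backcrossed 5 generations, in which GFP replaces Foxp3 on the gfpko allele of this X-linked gene. CD25pos denotes CD4+ cells of gfp/gfp mice, given IL-2 or untreated like the others, that had the receptor chain CD25 but no GFP. No array is shared between the 3 pairs, and no difference between populations could be tested with 1 array a group.

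IL-2 binds a receptor of alpha, beta and common gamma chains (Il2ra, Il2rb and Il2rg), which signals through the kinases Jak1 and Jak3 to the transcription factors Stat5a and Stat5b. STAT5 switches on growth and survival genes together with its own inhibitors, the SOCS proteins and Cish, which shut the signal down. Regulatory T cells hold much of the high-affinity receptor at rest, depend on IL-2 made by other T cells, and restrain immune responses through molecules such as Ctla4 and IL-10.

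The cells carried the markers of their label. Foxp3 lay at a log2 level of 10.86 in the untreated and 10.86 in the treated array, against 2.45 in GFP- CD25- CD4+ cells. All 7 T cell markers measured stood between 10.46 and 13.14 untreated and between 10.47 and 12.96 treated. Of the markers of other cells, Cd8a lay at 3.13 and 3.13, and the B cell gene Ms4a1 at 3.42 and 3.43, both close to the median of all probe sets (3.05 untreated and 3.04 treated). The 8 B cell markers measured had a higher median level, 4.33 untreated and 4.50 treated, and 2 of them lay below the median of each array. Levels summed over each list, on a log2 scale, were 12.27 and 12.15 for 8 of 12 B cell markers, where Ighm (12.18 and 12.04) made up most. They were 7.08 and 6.89 for 8 of 12 myeloid markers, and 6.42 and 6.78 for 8 of 10 CD8 and NK markers. The same sums were 5.96 and 6.29 for 2 of 8 gamma delta T cell markers, 4.26 and 4.06 for 2 of 9 erythroid markers, and 11.86 and 12.16 for 5 of 9 plasma cell markers. The last sum came mainly from Xbp1, Irf4 and Prdm1, which T cells also use, while the plasma cell gene Jchain lay at 2.55 and 2.57, below the median. Their part in the results was not tested. In RNA of sorted pools, fewer cells of a type and less RNA per cell cannot be told apart. For Actb, the 3′ control probe set exceeded the 5′ one by 3.07 untreated and 2.70 treated, a gap that widens as RNA or amplified product shortens. That of Gapdh was 5.55 and 5.53, and the part of either in the results was not tested.

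Cell division genes were the largest group, among the lists read, of the genes higher after IL-2. Of 11939 genes kept, 207 were at least 2-fold higher after IL-2, which is 1.73% of them, and 26 were at least 2-fold lower, which is 0.218%. At 1.5-fold, 515 genes were higher and 186 lower, and at 4-fold 14 were higher and 0 lower. The log2 difference over all genes had a median of -6.21e-05 and an SD of 0.32, with 5th and 95th percentiles of -0.38 and 0.53. Among the 8212 bright genes, those at least 2 log2 units above the array median on their higher array, 166 were higher (2.02%) and 16 lower (0.195%). Of the 207 higher genes, 44 belonged to the lists for mitosis or DNA replication, which hold 29 and 34 of the genes kept. With the cell cycle families described further on, chosen after their values were seen, the number was 62. A total of 151 belonged to no list. For 28 of the 207, and for 7 of the 26 lower genes, the lower array was below its own median, so that only a bound on the fold could be had. Counts of 2-fold genes use the measured differences, and with bounds in their place 190 genes were higher and 22 lower.

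**Figure D1:**
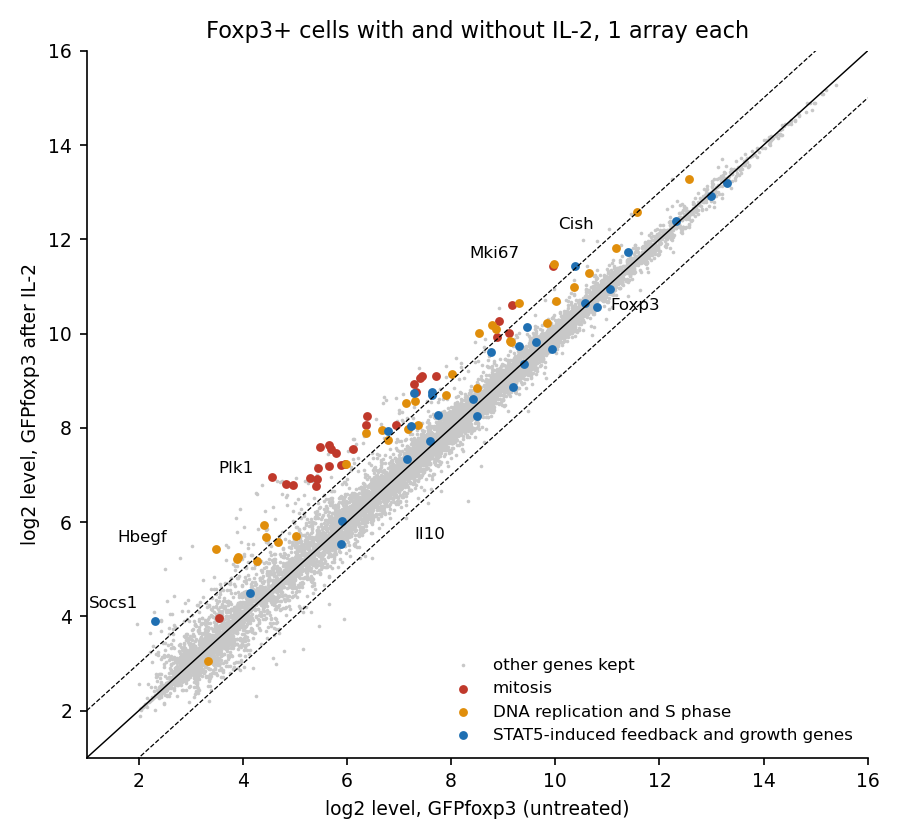
Log2 level of each of 11939 genes in treated GFPfoxp3 cells (vertical axis) against untreated cells (horizontal axis), 1 array each; the solid line marks equal levels and the dashed lines 2-fold differences. Members of the mitosis list (red) and of the replication list (orange) lie mostly above the upper dashed line or just under it, Cish and Socs1 (blue) lie above it, Foxp3 lies on the solid line and Il10 lies below the lower dashed line.

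Genes that act in mitosis, the phase in which chromosomes are parted, were higher in nearly every case. Of 29 members measured out of 30 listed, 27 were at least 2-fold higher after IL-2, beside 1.73% of all genes, 0 were lower, and all 29 had a positive difference. The median over the list was 1.54 on the log2 scale, against -6.21e-05 over all genes. The median level of the 29 genes was 5.96 untreated and 7.59 treated. The treated value was the highest of the 10 arrays, which otherwise ran from 3.48 in GFP- CD25- CD4+ cells to 7.31 in CD25pos cells after IL-2.

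Among its kinases, Plk1, which drives entry into and passage through mitosis, went from 4.56 to 6.96, a 5.28-fold difference. Cdk1, the cyclin-dependent kinase that starts mitosis, went from 6.38 to 8.24, or 3.65-fold. Its partners Ccna2 (cyclin A) and Ccnb2 (cyclin B) were higher by 1.38 and 1.43 on the log2 scale. Bub1, a kinase of the checkpoint that waits for all chromosomes to attach, went from 5.48 to 7.59, although its other probe set differed by only 0.08. The checkpoint kinase Ttk went from 4.96 to 6.79, and its other probe set likewise differed by only 0.01. Aurkb, the kinase that corrects faulty attachments, went from 6.36 to 8.07, and its other probe set was higher by 1.91.

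Components of the chromosome attachment site and the spindle followed. Nuf2, a subunit of the complex that binds spindle fibres, went from 5.65 to 7.63. Tpx2, which nucleates spindle fibres, went from 5.69 to 7.56, with other probe sets at 0.01 and 1.36. Cdkn3, a phosphatase that acts on cyclin-dependent kinases, went from 4.82 to 6.82. The proliferation marker Mki67 went from 9.95 to 11.43, a log2 difference of 1.48. Top2a, which untangles DNA, went from 9.17 to 10.60 on its brighter probe set while the other differed by 0.17. The probe sets of Kif2c, a kinesin that takes spindle fibres apart, went opposite ways, from 5.96 to 7.23 on the brighter one and by -0.21 on the other. The members short of 2-fold were Cenpa, the histone of the centromere, from 9.11 to 10.01, and Foxm1, a transcription factor of mitotic genes, from 3.55 to 3.96. Which of 2 parting probe sets reads the transcript better was not tested.

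Promoters of these genes are shown because many mitotic genes are known to share a pair of elements. These are the cell cycle genes homology region (CHR, letters TTTGAA) and CCAAT boxes, through which the DREAM complex, MYB-MuvB and NF-Y act. Each printed stretch ends at the base before the RefSeq transcription start and reads 5′ to 3′ on the strand of the gene, in the assembly GRCm38.p6. Capitals mark matches to TTTGAA or CCAAT on either strand, so that TTCAAA and ATTGG are the same elements read from the other strand. Cdk1 is at chr10:69352913-69353002 (minus strand), Cdc20, the activator of the anaphase complex, at chr4:118437344-118437413 (minus), Ube2c, a ubiquitin carrier of that complex, at chr2:164769859-164769928 (plus), and Kif11, the kinesin that pushes spindle poles apart, at chr19:37376322-37376381 (plus).
Cdk1: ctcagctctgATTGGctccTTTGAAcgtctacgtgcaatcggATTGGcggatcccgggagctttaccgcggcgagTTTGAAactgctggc
Cdc20: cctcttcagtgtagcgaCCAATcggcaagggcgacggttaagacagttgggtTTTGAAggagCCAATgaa
Ube2c: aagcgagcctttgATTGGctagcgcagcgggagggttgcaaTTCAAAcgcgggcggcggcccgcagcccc
Kif11: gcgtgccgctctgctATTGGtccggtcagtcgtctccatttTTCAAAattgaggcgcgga

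The windows searched ran from 250 bases before to 50 after each start. Of the 25 windows of 24 mitosis genes that had one, 20 held TTTGAA (80%) and 20 held CCAAT (80%). Among all 32851 RefSeq windows, 17.9% held TTTGAA and 37.4% held CCAAT, and among the windows of the genes kept 12.6% and 37.7%. Over the 201 windows of 173 of the 207 higher genes, TTTGAA was present in 32.8% and CCAAT in 58.7%. The 30 windows of 21 of the 26 lower genes held TTTGAA in 30% and CCAAT in 43.3%. Matches to these motifs overlapped each other in 47 of all windows. Each match describes letters only, and no binding was measured. Cdc20 itself went from 8.88 to 9.93, Ube2c from 7.28 to 8.92, and Kif11 from 5.28 to 6.94. The other Cdc20 probe sets lay at 0.24 and 1.36, and those of Kif11 at 0.05 and 1.90.

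Genes of DNA replication were higher as well, by smaller amounts. Of 34 members measured out of 35, 17 were at least 2-fold higher, beside 1.73% of all genes, and 0 lower. A total of 33 had a positive difference and the median was 0.98. The exception was Orc1, a subunit of the complex that marks origins, at 3.32 untreated and 3.05 treated, whose other probe set was higher by 0.75. The median level over the list was 7.63 untreated and 8.63 treated.

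Genes for the replicative helicase are given first. Cdc45, which activates that helicase, went from 3.48 to 5.43, but its other probe set differed by only 0.03. Gins2 and Gins1, subunits of the GINS complex that joins it, went from 4.41 to 5.95 and from 6.37 to 7.89. Of the helicase subunits, Mcm3 went from 9.31 to 10.64 and Mcm5 from 11.58 to 12.58. The difference of Mcm5 ran from 0.71 to 1.13 over the alternatives of processing, so its call depended on them. The remaining subunits of the ring, Mcm2, Mcm4, Mcm6 and Mcm7, were all higher without reaching 2-fold, by 0.80, 0.39, 0.62 and 0.65.

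Enzymes that make the building blocks of DNA were higher too. Rrm2 and Rrm1, the subunits of ribonucleotide reductase, went from 9.98 to 11.47 and from 8.02 to 9.14. The difference of Rrm1 ran from 0.735 to 1.125 over the alternatives of processing, so its call depended on them. Thymidine kinase (Tk1) went from 7.30 to 8.58, and thymidylate synthase (Tyms) from 3.91 to 5.27. Uhrf1, which keeps DNA methylation through replication, went from 8.53 to 10.00, with its other probe set higher by 1.59. DNA ligase Lig1 was higher by 1.39, and Prim1, which lays the RNA primers, went from 8.86 to 10.10. Pcna, the sliding clamp of the polymerases, went from 12.56 to 13.27, short of 2-fold.

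Replication genes are known targets of E2F transcription factors, and some of their promoters are shown for that element. Capitals mark matches to TTCCCGC on either strand, each stretch again ending at the base before the RefSeq start in GRCm38.p6. Rrm1 is at chr7:102441620-102441694 (plus), the first of the Uhrf1 windows at chr17:56303277-56303336 (plus) and Prim1 at chr10:128015175-128015214 (plus). The other Uhrf1 window, at a later start, held no TTCCCGC.
Rrm1: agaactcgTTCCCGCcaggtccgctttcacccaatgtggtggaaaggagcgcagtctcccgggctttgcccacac
Uhrf1: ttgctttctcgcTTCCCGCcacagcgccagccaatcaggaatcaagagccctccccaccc
Prim1: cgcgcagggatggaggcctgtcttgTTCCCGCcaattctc

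TTCCCGC was present in 14 of 34 windows of 29 replication genes (41.2%) and in 0 of the 25 mitosis windows. Its share was 4.60% of all windows and 8% of the windows of the genes kept. TTTGAA, in turn, was present in 3 of the 34 replication windows (8.82%). Matches of TTCCCGC overlapped those of CCAAT in 13 of all windows and those of TTTGAA in 0. Over the 201 windows of higher genes the share with TTCCCGC was 20.9%, and over the 30 windows of lower genes it was 0.

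Whole families, read by symbol and chosen after their values were seen, were read next to the lists. Their counts are descriptions, beside 1.73% of all genes at least 2-fold higher. All 20 centromere proteins measured had a positive difference, with 10 at least 2-fold higher and a median of 1.01. Cenpi led them, from 2.79 to 5.24, which is at least 4.55-fold because the untreated array was below its median. Of 8 condensin subunits, which compact chromosomes, 4 were at least 2-fold higher, with Ncapg going from 5.44 to 7.60 and Ncapg2 from 6.74 to 8.60, while Smc4 lay at 13.59 and 13.49. Of 25 kinesins 8 were at least 2-fold higher, 7 of them also by the bound, namely Kif18b (from 4.65 to 6.88), Kif11, Kif20a, Kif18a, Kif23, Kif2c, Kif4 and Kif22. Among these, Kif23, Kif11 and Kif2c fell as low as 0.84, 0.05 and -0.21 over the alternatives of processing. The remaining kinesins ran from Kif3a, a cargo motor (-0.27), to Kif20b, which acts in cell cleavage (0.66), and the median over the family was 0.22.

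All 8 E2F factors had a positive difference, and those at least 2-fold higher were E2f7 (from 3.88 to 5.80) and E2f8 (from 6.55 to 8.20), which repress E2F targets late in S phase. E2f1, an activator, went from 4.28 to 5.17. Among 8 cyclins, Ccne1 and Ccne2, which start S phase, were higher by 0.70 and 0.90. Of the D cyclins, which act in G1, Ccnd2 lay at 12.99 and 12.92, Ccnd3 at 8.41 and 8.62, and Ccnd1 at 3.61 and 2.70. Of 5 inhibitors of cyclin-dependent kinases 0 reached 2-fold. Cdkn2c (p18) went from 9.11 to 9.81 and Cdkn1b (p27) from 9.01 to 8.80. Of 10 Fanconi anaemia proteins, which repair crosslinked DNA, Fanci alone reached 2-fold (from 5.37 to 6.51).

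**Figure D2:**
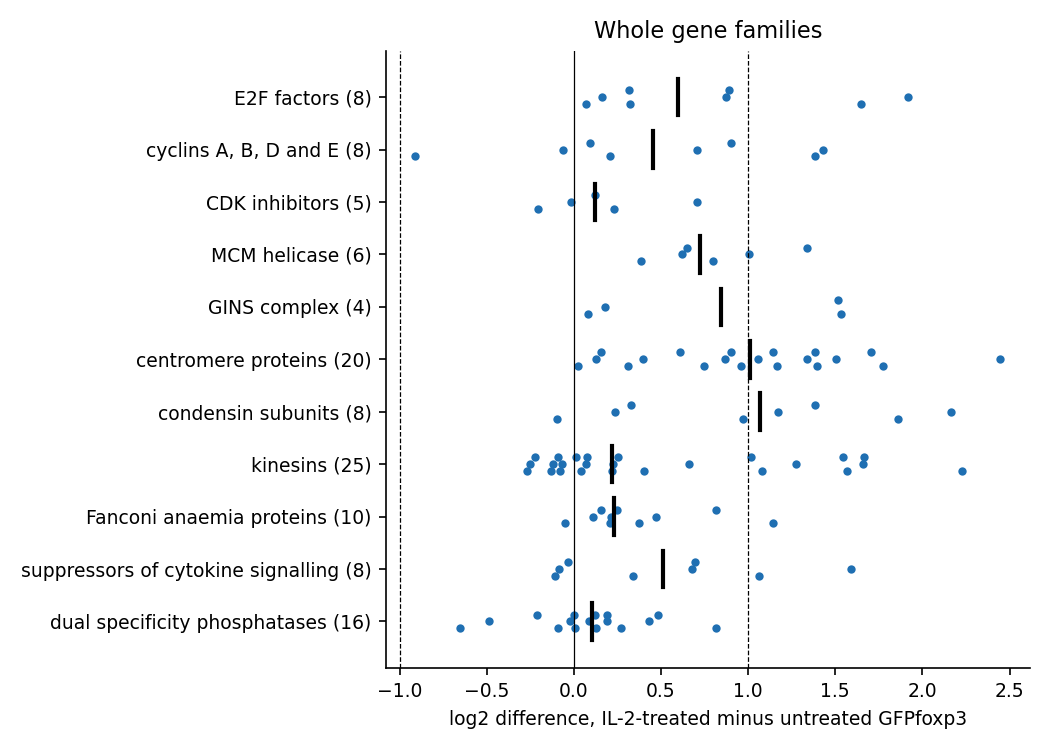
Log2 difference, IL-2-treated minus untreated, of each member (points) of 11 gene families in GFPfoxp3 cells, with the family median as a black bar, the number measured in brackets and 2-fold marked by dashed lines. Centromere proteins and condensin subunits have medians of 1.01 and 1.07, kinesins spread from -0.27 to 2.22 around a median of 0.22, and dual specificity phosphatases have a median of 0.10.

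Known response genes of STAT5 were higher in part. Of 29 STAT5-induced feedback and growth genes measured out of 30, 6 had a measured difference of at least 2-fold upwards (1.73% of all genes did), 5 of them also by the bound, 0 were lower and 20 had a positive difference. The median was 0.19. Cish, the cytokine-inducible SH2 protein that dampens STAT5, went from 10.37 to 11.43, a 2.09-fold difference. Socs1, which blocks JAK kinases, went from 2.32 to 3.91, at least 1.81-fold because its untreated array was below the median. Spry1, an inhibitor of growth factor signalling, went from 7.64 to 8.76, and Gadd45g, a stress and growth arrest protein, from 7.29 to 8.73. The secreted members were Osm (oncostatin M), from 6.79 to 7.93, and Lta (lymphotoxin alpha), from 7.64 to 8.70.

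Members short of 2-fold included the growth regulator Myc, from 8.76 to 9.61, and Dusp6, a phosphatase that switches off ERK kinases, from 7.22 to 8.04. Socs2 went from 9.45 to 10.14, and its 5 other probe sets ranged from -0.09 to 1.40. Socs3 lay at 11.40 and 11.74, and Id2 at 7.75 and 8.26. Survival factors of the list were close to 0 or below it. Bcl2 lay at 10.80 and 10.56, Mcl1 at 13.29 and 13.19, and Bcl2l1 (Bcl-xL) at 7.59 and 7.73. The sign of Bcl2 depended on the processing, with differences from -0.29 to 0.26 over the alternatives. The kinases Pim1, Pim2 and Pim3 differed by -0.10, -0.35 and -0.24. Over the SOCS family, chosen after its values were seen, the median of 8 members was 0.51. Measured differences of Cish and Socs1 passed 2-fold there, that of Socs1 not by its bound, while 0 of 16 dual specificity phosphatases passed.

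The palindrome bound by STAT5 dimers is printed for the 2 of these 6 genes whose windows hold it. Capitals mark matches to TTCNNNGAA, which reads the same on both strands. The Cish stretch at chr9:107296654-107296683 (plus strand, GRCm38.p6) spans the RefSeq transcription start. The Lta stretches, both upstream of its RefSeq start, are at chr17:35205489-35205508 and chr17:35205352-35205376 (minus).
Cish: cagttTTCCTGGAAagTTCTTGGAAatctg
Lta, farther from the start: cactcTTCAGGGAAccaggc
Lta, nearer the start: cgactccctTTCCCAGAAcgcagta

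The palindrome was present in 2 of the 5 windows had by the 6 higher genes and in 4 of the 30 windows of the whole list (13.3%). It was present in 8.30% of all windows, 6.92% of the windows of genes kept and 8.96% of those of higher genes. It was present in 0 of the 25 mitosis windows and in 3 of the 17 windows of replication genes that were at least 2-fold higher (17.6%). Its matches overlapped those of TTTGAA in 140 of all windows (0.426%). Sites farther than 250 bases from the start were not searched.

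The receptor and its signalling chain differed little. Of 18 genes for the IL-2 receptor, related receptors, JAKs and STATs measured out of 20, 0 reached 2-fold, 5 had a positive difference and the median was -0.07. Il2ra (CD25) lay at 11.11 and 11.56, a difference of 0.45 with 0.32 on its other probe set. Il2rb lay at 10.08 and 10.27, while Il2rg was not analysed here. Stat5a lay at 8.61 and 8.22, Stat5b at 10.14 and 10.07, Jak1 at 11.06 and 10.96, and Jak3 at 7.70 and 7.36. Il21r, the receptor chain for IL-21, had the largest difference of the list, from 8.44 to 7.95. Il7r lay at 12.94 and 12.70. Il2 itself lay at 2.56 and 2.54, below the median of both arrays.

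**Figure D3:**
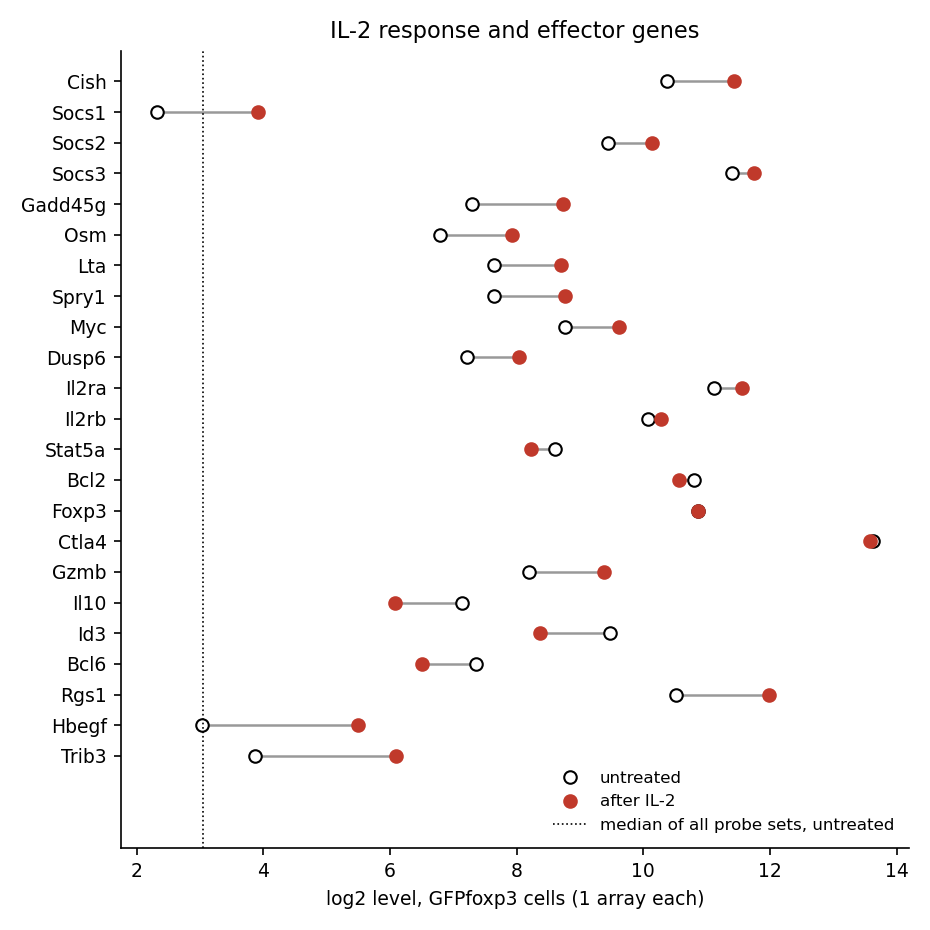
Log2 level of 23 genes in untreated (open circles) and IL-2-treated (red circles) GFPfoxp3 cells, 1 array each, with the median of all probe sets of the untreated array dotted. Cish, Gadd45g, Osm, Lta and Spry1 lie further right after IL-2 by 1.06 to 1.45, Socs1 starts below the median and ends at 3.91, the circles of Foxp3 coincide, and Il10 and Id3 lie further left.

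Of 33 identity genes of regulatory T cells measured out of 35, Gzmb alone was at least 2-fold higher, beside 1.73% of all genes, and Il10 alone at least 2-fold lower, beside 0.218%. The higher count, 3.03% of the list, is near its share, while the lower count rests on the single gene Il10. The median over the list was 0.06. The inhibitory receptor Ctla4 lay at 13.63 and 13.57, the Ikaros factor Ikzf2 (Helios) at 12.43 and 12.42, and the surface receptor Nrp1 at 11.32 and 11.25. The TNF receptors Tnfrsf18 (GITR) and Tnfrsf4 (OX40) differed by 0.11 and 0.21. Pde3b, which breaks down cAMP, lay at 6.06 and 5.90. Icos, a costimulator, went from 13.05 to 12.69, and Klrg1, a marker of mature regulatory cells, from 10.79 to 11.17. The cytotoxic protease Gzmb went from 8.19 to 9.37, and the suppressive cytokine Il10 from 7.14 to 6.08.

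Other secreted and cytotoxic genes were few. Of 17 granzymes and killing genes 2 were at least 2-fold higher, Gzmb and Gzma (from 3.48 to 4.58), beside 1.73% of all genes. The list median was -0.02, and 13 of the 17 were at or above the median of an array. Gzma is also in the list of CD8 and NK markers, where it was the 1 of 8 members to reach 2-fold. The chemokine Ccl5 went from 9.82 to 9.07. Of 15 effector cytokines measured out of 24, 3 were at least 2-fold higher (1.73% of all genes), Lif (leukaemia inhibitory factor, from 5.00 to 6.40), Osm and Lta, and Il10 was lower (0.218%). Of these 15, 10 were at or above the median of an array. Ifng lay at 4.92 and 4.88, and Il4 at 2.32 and 2.01, the latter below the median of both arrays. None of 19 helper lineage factors reached 2-fold, the largest difference being in Bcl6, the repressor of follicular helper cells, from 7.36 to 6.51.

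Migration and costimulation genes mostly stayed within 2-fold. Of 21 chemokine receptor and homing genes 1 was at least 2-fold higher, near the 1.73% of all genes, namely Rgs1, which quenches chemokine receptor signals, from 10.52 to 11.99. Short of 2-fold, Cxcr4, Cxcr5 and Cxcr6 differed by -0.92, -0.92 and -0.93, with Cxcr4 at 8.63 and 7.70. Among 16 TNF receptor superfamily genes, 20 inhibitory and activation receptors, 12 integrin chains and 26 T cell receptor signalling genes, 0 reached 2-fold in either direction. Their medians were -0.00, -0.05, -0.01 and -0.12.

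Growth and metabolism genes mostly stayed within 2-fold. Of 31 ribosome biogenesis genes 0 reached 2-fold, 4 had a positive difference and the median was -0.11. Heatr1, which helps make ribosomal RNA, went from 9.01 to 8.46. Medians were 0.03 for 21 glycolysis and pentose phosphate genes, 0.13 for 22 sterol and fatty acid synthesis genes, 0.08 for 18 nucleotide synthesis genes and 0.09 for 22 proteasome genes, with 0 at 2-fold in each. Of 27 respiratory chain subunits 22 had a positive difference, with a median of 0.11, and Uqcrfs1, the Rieske protein of complex III, went furthest, from 10.30 to 10.87. Among 23 amino acid transport and ATF4 target genes only Trib3, a pseudokinase induced by stress, reached 2-fold, from 3.87 to 6.09, with its other probe set at 2.25. Among 29 heat shock and ER chaperones only Sdf2l1, an ER chaperone partner, did so, from 5.11 to 6.28. These single genes are 4.35% and 3.45% of their lists, beside 1.73% of all genes, and are not read as results about the lists.

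Genes of naive cells and immediate early genes had mostly negative differences, as did those of ribosome biogenesis. Of 28 naive T cell and FOXO genes 23 had a negative difference and 0 reached 2-fold, with a median of -0.19. Bcl6 and Ddit4, a stress gene induced by FOXO (from 11.63 to 10.93), went furthest. The 7 T cell markers measured had a similar median, -0.18, with 5 negative differences. Of 25 immediate early genes 18 had a negative difference, with a median of -0.27. Fos, a subunit of AP-1, went from 10.10 to 9.12 and Crem, a cAMP-responsive repressor, from 8.51 to 9.42. Of 19 BCL2 family and p53 target genes 0 reached 2-fold, the furthest being Bmf and Bbc3, activators of cell death, at -0.81 and -0.60. Medians were 0.01 for 26 antiviral interferon-stimulated genes, 0.15 for 21 interferon-inducible GTPase and antigen presentation genes and -0.04 for 21 genes of cAMP machinery, with 0 at 2-fold.

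**Figure D4:**
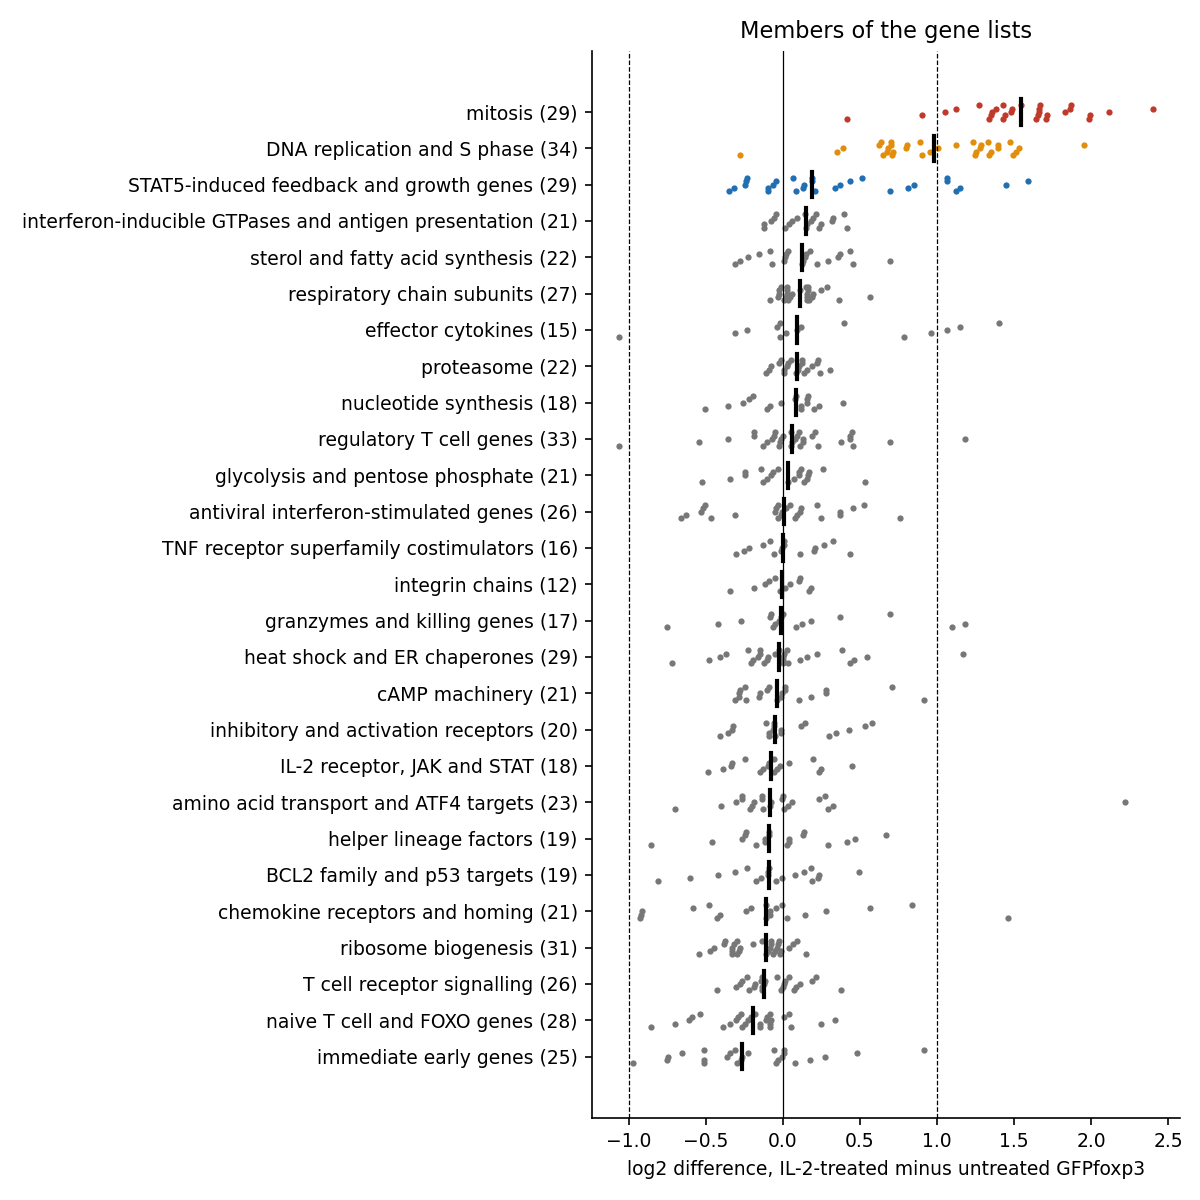
Log2 difference, IL-2-treated minus untreated, of each measured member (points) of 27 gene lists in GFPfoxp3 cells, sorted by list median (black bar), with the number measured in brackets and 2-fold marked by dashed lines. The mitosis list has a median of 1.54 and the replication list of 0.98, and the other 25 lists have medians between -0.27 and 0.19.

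The 15 largest increases among bright genes were mostly genes of division, with the growth factor Hbegf first. Hbegf, which activates the EGF receptor, went from 3.03 to 5.49, at least 5.41-fold, and its other probe set was higher by 2.07. After it came Cenpi, Ckap2, a spindle protein (from 4.36 to 6.78), Plk1, and Anln, which organises the cleavage furrow (from 4.24 to 6.62, other probe set -0.12). Spdl1, Spag5, Kif18b, Trib3, Ncapg, Ckap2l, Chek1, Bub1, Cdkn3 and Nuf2 completed the 15, between 2.33 and 1.99. Chek1, the kinase that halts the cycle when replication stalls, went from 4.75 to 6.86. Its 3 other probe sets were also higher, 1 of them at least 2-fold, and its difference fell as low as 1.06 over the alternatives. Genes outside the lists, named after their values were seen, included Myb, a factor of lymphoid progenitors (from 11.03 to 12.22, other probe sets 1.38 and 1.40). Others were Nfkbiz, an inhibitor protein of NF-kappa B (from 10.80 to 11.96), Sgk1, a salt-sensing kinase (from 8.65 to 9.89), and Brca1, which repairs broken DNA (from 6.05 to 7.57). Il10ra, the IL-10 receptor, went from 7.69 to 8.70 on its brighter probe set and by -0.02 on the other.

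The largest decreases were smaller and mixed. First was 4933438K21Rik, from 5.94 to 3.95, then Gm9222 from 8.33 to 6.45 and Defb1, an epithelial defensin, from 5.15 to 3.30. Stox2, Dsc3, Ntmt1, Tktl1, Pou4f1, Eps8l1 and Psg28 followed with differences of -1.66 to -1.13. Several of these are known mainly from other tissues, Dsc3 from desmosomes of epithelium and Psg28 from placenta. The lymphoid genes among the 15 were Id3, an inhibitor of E proteins, from 9.48 to 8.36, Il10, and Lyl1, a factor of blood progenitors, from 5.22 to 4.21. Prag1 and Pank1 were the remaining members, at -1.07 and -1.06. Il10 was the single lower gene in any list. Of the 8 other probe sets that 7 of the 26 lower genes had, 4 went the same way and 0 reached 2-fold. By contrast, 100 of 113 other probe sets of 83 higher genes went the same way and 54 reached 2-fold.

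The other populations are given side by side. In GFPko cells 348 genes were at least 2-fold higher after IL-2 (2.91%) and 239 lower (2%). In CD25pos cells 119 were higher (0.997%) and 42 lower (0.352%). Of the 207 genes higher in GFPfoxp3 cells, 119 were at least 2-fold higher in GFPko cells as well, which is 57.5% of the 207 and 34.2% of the GFPko genes. In CD25pos cells 95 were, which is 45.9% of the 207 and 79.8% of the CD25pos genes. A total of 78 were higher in all 3 populations, 33 of them in the mitosis or replication lists, and 71 were 2-fold higher in neither other population. That split rests on the threshold. Of the 207, 183 had a positive difference in GFPko cells and 189 in CD25pos cells, with medians of 1.22 and 0.94. Over all 11939 genes, 5801 and 5665 had a positive difference. Of the 26 lower genes 6 were at least 2-fold lower in GFPko cells and 0 in CD25pos cells. A negative difference was found for 19 of the 26 in GFPko and 15 in CD25pos cells. Over all 11939 genes, 6138 and 6274 had a negative difference.

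The mitosis list had medians of 1.54 in GFPfoxp3, 1.71 in GFPko and 1.73 in CD25pos cells, with 25 of 29 members at least 2-fold higher in all 3. Of all 11939 genes kept, 78 were at least 2-fold higher in all 3. Plk1 was higher by 1.68 in GFPko and 2.04 in CD25pos cells, and Cdk1 by 2.71 and 1.78. The replication list had medians of 0.98, 0.89 and 0.65, with 8 of 34 members 2-fold higher in all 3, beside the same 78 of 11939. The STAT5 list had medians of 0.19, 0.55 and -0.01. Cish alone of its 29 members was at least 2-fold higher in each population (78 of all 11939 genes were), by 1.06, 1.07 and 1.07. Lta was higher by 1.07 in GFPfoxp3, 3.47 in GFPko and 0.60 in CD25pos cells, Myc by 0.85, 2.10 and 0.21, and Il2ra by 0.45 and 1.70 with -0.02 in CD25pos. Before IL-2, the Il2ra level was 11.11 in GFPfoxp3, 9.58 in GFPko and 7.91 in CD25pos cells. Ribosome biogenesis medians were -0.11, 0.27 and -0.24. The Foxp3 probe set differed by -0.00, 1.07 and -1.06, with CD25pos levels of 3.90 and 2.85 near the array median.

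**Figure D5:**
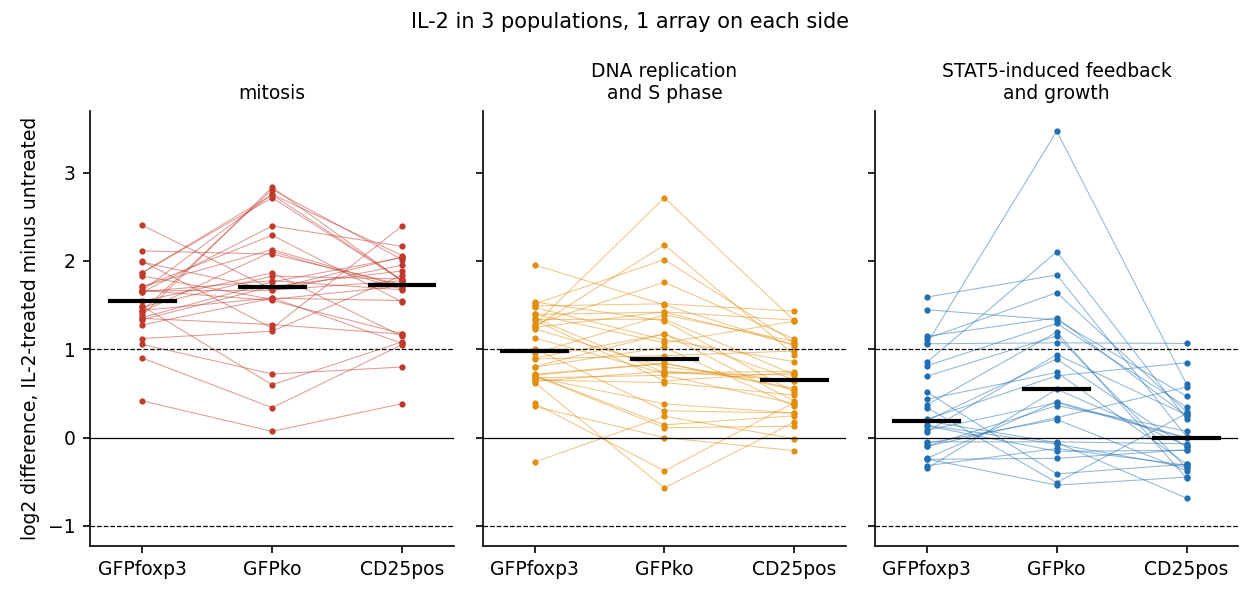
Log2 difference, IL-2-treated minus untreated, of each member (points joined by lines) of the mitosis, replication and STAT5 lists in GFPfoxp3, GFPko and CD25pos cells, 1 array on each side, with medians as black bars and 2-fold dashed. Mitosis medians are 1.54, 1.71 and 1.73, and STAT5 medians 0.19, 0.55 and -0.01; no difference between populations was tested.

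Cytokine and effector genes in the 3 pairs are given next. Il10 was lower by 1.06 in GFPfoxp3 and 1.18 in GFPko cells and differed by -0.60 in CD25pos cells, where its levels were 4.23 and 3.62. Id3 differed by -1.12, -0.72 and -0.71. Gzmb was higher by 1.18, 1.44 and 2.27, and Rgs1 by 1.46, 1.89 and 1.72. Sgk1 differed by 1.24, -0.74 and 0.12, and Ddit4 by -0.70, -2.75 and 1.16. The Actb gap between 3′ and 5′ was smaller after IL-2 in each pair, 3.69 and 2.76 in GFPko and 3.80 and 2.86 in CD25pos cells, and its part in these values was not tested. Across the 11939 genes, the differences in GFPfoxp3 cells had a Pearson correlation of 0.40 with those in GFPko cells and 0.40 with those in CD25pos cells. These are descriptions over genes, which are not replicates, of pairs that share a platform, a joint normalization and an amplification method.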

How the data were processed

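Total RNA of sorted cells was extracted with Stat-60, amplified in 2 rounds (MessageAmp II) and hybridized to Affymetrix mouse arrays, per the labels' protocols. Log2 values of 45101 probe sets were deposited. The authors had normalized all 10 arrays jointly, according to the series' design text. That the scale is log2 was read from the values. For software of summary and normalization: not given in the sources used here. Amplification from the 3′ end weakens probe sets far from it.

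Probe sets were named by the platform annotation, with symbols updated by Entrez ID to GRCm38.p6 (34754 of 34958 probe sets with 1 gene matched; 932 had several genes and 9211 none listed). Genes were kept where at least 1 array reached its overall median, and were read by the probe set of highest mean across the 10 arrays. This left 11939 of 18194 genes. The log2 level of the untreated array was subtracted from that of the IL-2 array (Python 3.11.15, pandas 2.3.3, numpy 2.4.6). A call means at least 2-fold (log2 difference of 1), without a test, as each group had 1 array. Where the lower array was below its median, "at least" folds are against that median.

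The comparison, its members and the 34 gene lists were chosen with earlier results of these data known, and the 13 families after the values were seen. Named genes were the 15 largest increases and decreases among bright genes, up to 6 called members of each list or the 2 furthest where none was called, Foxp3, Pde3b, and members of the receptor and STAT5 lists; others named are examples chosen after their values were seen. Listed genes not counted as measured had no kept probe set of 1 gene and were not analysed here. Promoter windows are RefSeq's, matched by symbol. As a check of the code only, differences larger than the threshold, put into genes well above the array median, were recovered. That check does not bear on how reliable the calls are. Alternatives were quantile normalization, centring, filters, the choice of probe set and a 3-fold threshold.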

Additional observations from a re-analysis of the deposited data

Results flagged for a closer look

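A few genes had measured log2 differences past 1 in opposite directions in GFPfoxp3 cells and another population after IL-2. With 1 array on each side the differences between populations were not tested, and most of the levels are low. The unnamed transcript 1810044D09Rik differed by -1.03 in GFPfoxp3 cells (4.69 untreated and 3.66 treated) and by 1.21 in GFPko cells (2.92 and 4.13, the first below the array median of 3.11). Calml3, a calmodulin-like protein, differed by 1.11 in GFPfoxp3 cells (3.13 and 4.24) and by -1.12 in GFPko cells (4.24 and 3.12). Smo, the signalling receptor of the Hedgehog pathway, differed by 1.27 in GFPfoxp3 cells (2.43 and 3.70, at least 1.56-fold since the first is below the array median, with -0.02 on its other probe set) and by -1.18 in CD25pos cells (5.50 and 4.33). Stard6, a lipid transfer protein, differed by -1.54 in GFPfoxp3 cells (4.80 untreated and 3.26 treated) and by 1.26 in CD25pos cells (2.70 and 3.96, the first below the array median of 3.07, so that 2-fold is not shown).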

How the results depend on the processing

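No paired analysis was possible because each group holds 1 array. The 207 higher and 26 lower genes became 188 and 26 with quantile normalization, 195 and 29 after centring each array, 207 and 25 with no filter on dim probe sets, 180 and 23 with probe sets of a gene averaged, and 177 and 21 without probe sets marked as possibly cross-matching. With the brightness filter set before a probe set was chosen, leaving 8222 genes, they became 166 and 17, and at a 3-fold threshold 58 and 6. Without the mitosis and replication lists, an alternative chosen after seeing the data, 163 genes were higher. Over these settings other than the threshold, 19 to 27 mitosis genes and 14 to 17 replication genes were at least 2-fold higher, with mitosis medians of at least 1.36. The replication median passed 2-fold, at 1.01, among bright genes and at 1.13 without cross-matching probe sets. Kif2c reversed, to -0.21, without cross-matching probe sets, where Top2a fell to 0.17 and Kif11 to 0.05, because another probe set was read. Averaging probe sets took 15 named genes under 2-fold, among them Dsc3 (-0.56), Ntmt1 (-0.63), Pank1 (-0.12), Cdc45 (0.99) and Il10ra (0.50). The median of the effector cytokines was 0.96 among bright genes and -0.00 with no filter. No replicate spread exists, so the precision of single genes is unknown, and genes near the array median are limited by background.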
